A study of Homo sapiens with 4 samples.

Results

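The regions described here are the H3K9me3 regions of the long arm of chromosome 20 in BJ-HELT cells, taken as all called regions on chromosome 20 whose midpoint lay from 34 to 58 Mb (hg19). This window leaves out the stretch near the centromere and the end of the arm. It held 260 of the 425 regions of chromosome 20, out of 3382 on all autosomes and 5211 in the whole list. The window was chosen by position on a chromosome selected on its high number of regions in these same data, so that number and every value below are descriptions without a test.

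BJ-HELT is an established line of human foreskin fibroblasts that carry hTERT, the catalytic subunit of telomerase, and the early region of SV40. Cells at passage 10 to 11 gave 2 H3K9me3 chromatin immunoprecipitates and 2 input DNA libraries without antibody, all from the same untreated line. The values come from a single list given for the series, and the libraries it was called from are not stated. No value therefore has a replicate error, and neither the precipitates nor the inputs can be set against each other. Each region carries a whole number that has the form of a read count.

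Trimethylation of lysine 9 on histone H3 is the mark of constitutive heterochromatin. It is written by SUV39H enzymes and SETDB1 and is bound by HP1 proteins, which compact the chromatin. In fibroblasts it is best known at satellite repeats beside centromeres, at transposons and at arrays of zinc finger genes, and broad domains of it also cover genes of other lineages. The window lies away from the centromere of chromosome 20, and its regions were many, a few kb long and alike in strength.

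The chromosome 20 window held 10.8 regions per Mb and 1.17 Mb of covered sequence, or 4.89% of its 24 Mb. All 260 regions together carried 33610 counts, which was 1.51% of the count of the whole list, while they made up 4.99% of its regions and 4.71% of its covered length. The most crowded 24 Mb stretch of any other autosome held 177 regions, on chromosome 3, followed by 172 on chromosome 16 and 136 on chromosome 19. Across the 21 other autosomes this highest number ranged from 18 on chromosome 2 to 177, with a median of 58. No other autosome had a 24 Mb stretch with as much covered sequence either, the closest being chromosome 16 with 1089.6 kb. These stretches began at whole Mb, and those of some chromosomes take in sequence next to the centromere, which the chromosome 20 window does not.

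**Figure D1:**
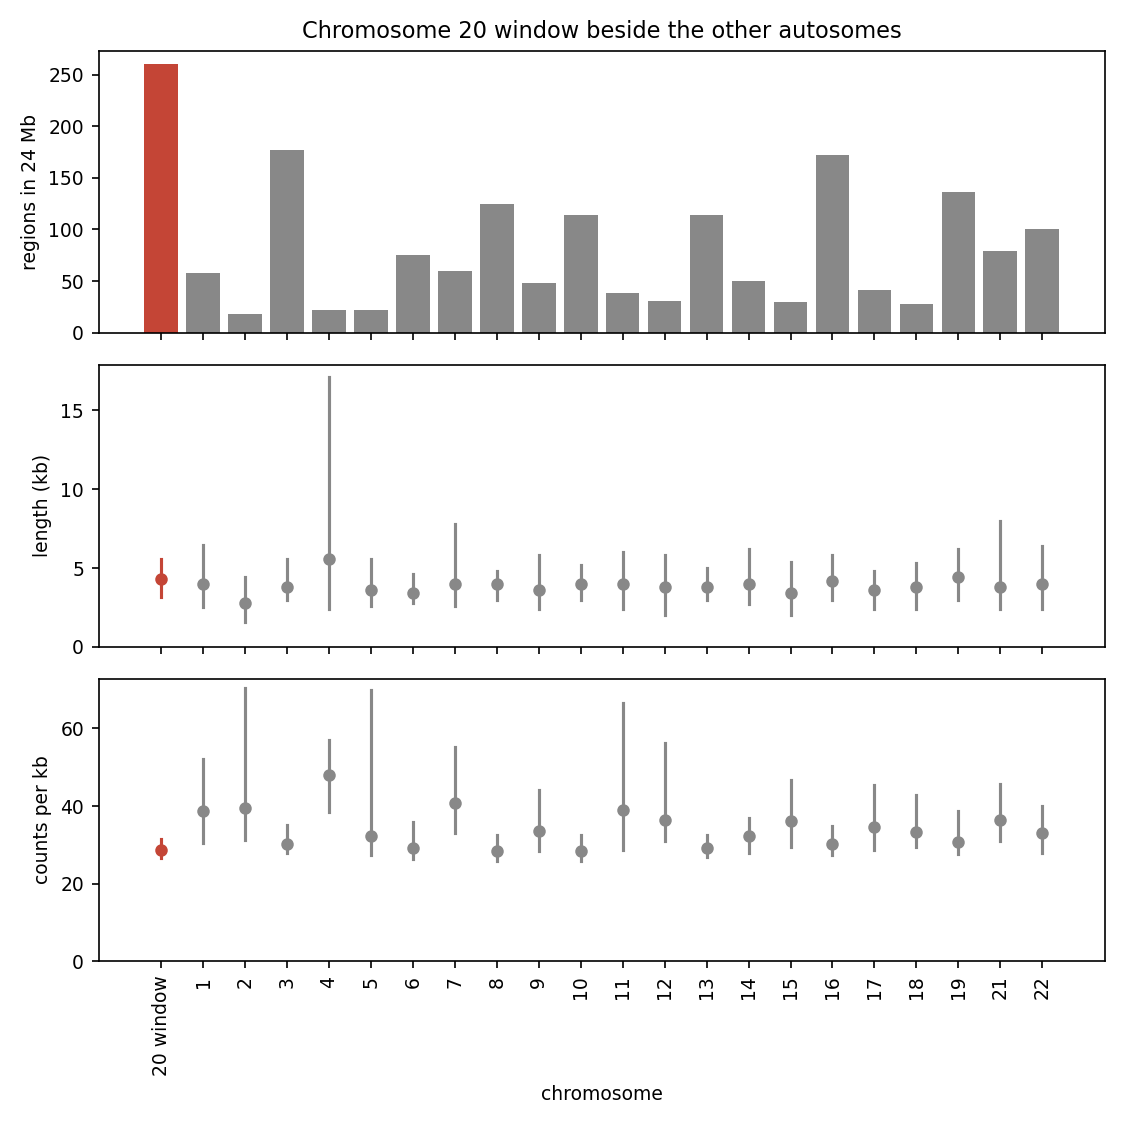
Top, regions in the chromosome 20 window (red) and in the most crowded 24 Mb of each other autosome (grey). Middle and bottom, median (point) and quartiles (line) of region length in kb and of counts per kb, for the window and for all regions of each other autosome: the window has the tallest bar, 260 regions, and a median of 28.6 counts per kb with a short line between quartiles.

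Marked regions were spread over the whole window. Every one of its 24 bins of 1 Mb held at least 3 regions, with a median of 8.5 and a highest value of 30. Among the 2696 bins of the other autosomes, from the first to the last region of each, 65.7% held none, 12.4% held 3 or more and 1.97% held 10 or more, against 11 of the 24 bins (45.8%) on chromosome 20. On chromosome 20 as a whole, bins with at least 3 regions ran on without a break for 32 Mb. The longest such run on another autosome was 12 Mb, on chromosome 16. With at least 1 region per bin the run was 34 Mb on chromosome 20 and 24 Mb on chromosome 3. Shifting the bins by 0.5 Mb left 1 region in the emptiest bin of the window, so the value of 3 depends on where the bins start.

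The number of regions nonetheless varied 10-fold between bins. The bin from 41 to 42 Mb held 30 regions that covered 155.0 kb, and the bin before it, from 40 to 41 Mb, held 28 over 133.4 kb. Next came 21 regions over 81.6 kb from 54 to 55 Mb, 20 over 90.6 kb from 51 to 52 Mb and 19 over 85.2 kb from 44 to 45 Mb. These 5 bins had 45.4% of the regions. At the other extreme stood the bins from 35 to 36 Mb and from 55 to 56 Mb, with 3 regions each (14.8 and 10.4 kb), and that from 52 to 53 Mb with 4 (16.8 kb). A further 5 bins, beginning at 34, 42, 46, 47 and 49 Mb, held 5 each. The bin from 55 to 56 Mb, 1 of the 2 emptiest, lay directly beside that from 54 to 55 Mb, the third fullest. Across the 24 bins, the rank correlation of position with the number of regions was -0.07 (Spearman, given as a description).

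Crowded bins did not hold denser regions. The bin medians lay between 26.5 and 33.8 counts per kb. The bin with 30 regions had 28.2 counts per kb at the median and the one from 35 to 36 Mb, with 3 regions, had 26.5, whereas the highest median, 33.8, belonged to a bin with 5 regions, from 42 to 43 Mb. Regions of that last bin were short, 3200 bp at the median against 4300 bp in the window. Shorter regions had more counts per kb, as given below, and the bin medians were not adjusted for length. Spearman's rho between the number of regions and the median counts per kb was 0.04 over the 24 bins, and 0.10 between the number and the median length. On the other autosomes, the medians of the 335 bins with 3 or more regions ran from 24.2 to 304.8 counts per kb, and 57.3% of those bins fell inside the range of the chromosome 20 bins.

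**Figure D2:**
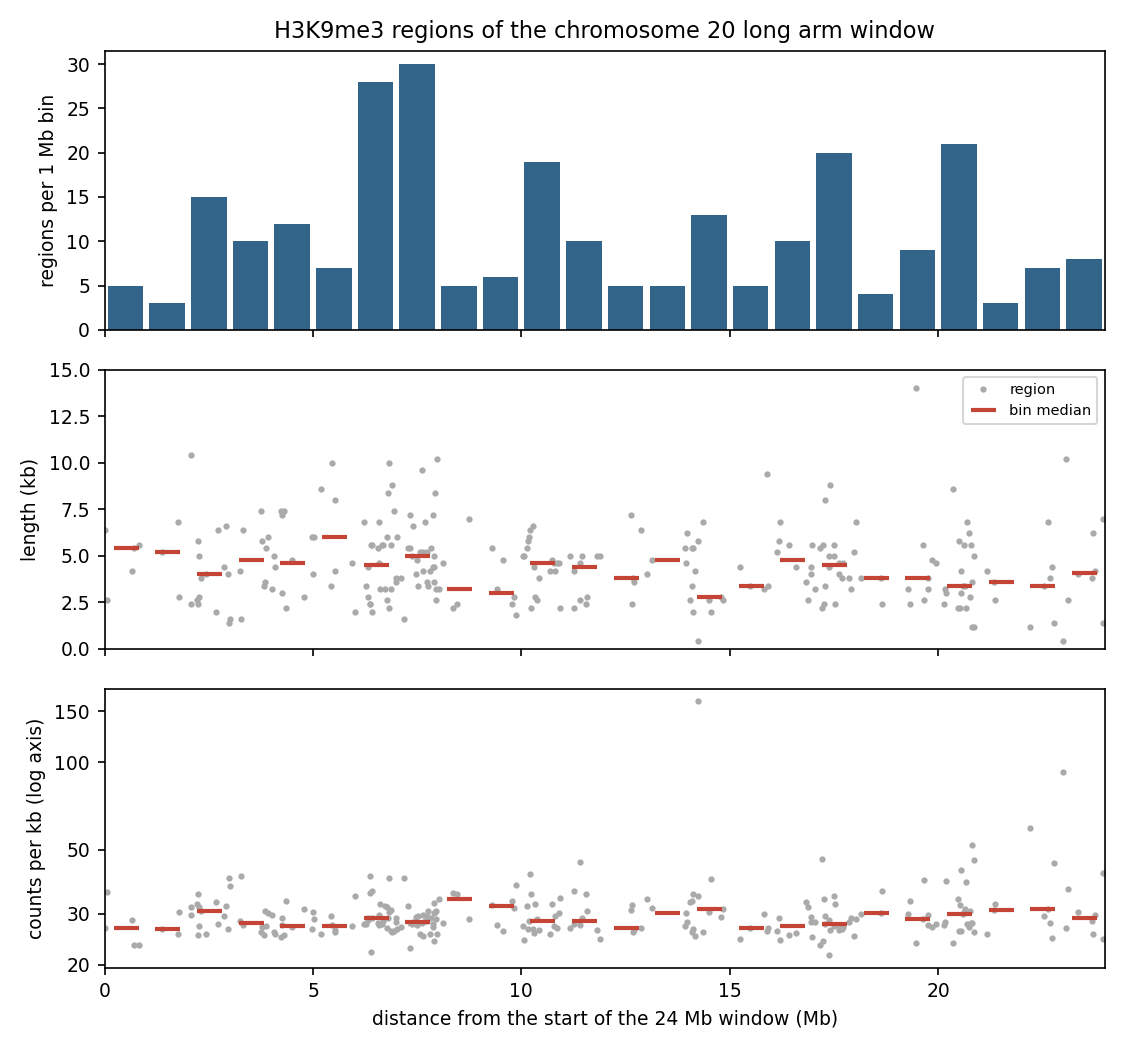
Number of regions per 1 Mb bin (top), length in kb (middle) and counts per kb on a log axis (bottom) along the window, by distance from its start. Grey points are single regions and red marks are bin medians: the number per bin moves between 3 and 30, while the medians of counts per kb stay between 26.5 and 33.8.

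Single regions were mostly a few kb long. Their lengths ran from 0.4 to 14.0 kb with a median of 4300 bp and quartiles of 3150 and 5600 bp, and 234 of the 260 (90%) measured from 2 to 8 kb. The other autosomes had a median of 4000 bp (quartiles 2800 and 5600 bp), and 76.7% measured from 2 to 8 kb. In the most crowded 24 Mb of chromosomes 3, 16 and 19, the share from 2 to 8 kb was 89.8, 89.0 and 83.1%. The chromosome 20 median was above that of 19 of the 21 other autosomes, which ranged from 2800 bp on chromosome 2 to 5600 bp on chromosome 4. Both tails of length were thinner than on the other autosomes taken whole. Regions of 10 kb or more numbered 6, or 2.31%, where 8.49% of regions on the other autosomes were that long. Those of 1 kb or less numbered 2, or 0.77%, against 4.02%.

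The longest region, at chr20:53464401-53478400, spanned 14.0 kb and held 333 counts. It stood alone, with no other region within 100 kb, and at 23.8 counts per kb (95% exact Poisson interval 21.3 to 26.5, counting error only) it was also among the thinner ones. A region of 10.4 kb lay at chr20:36077601-36088000 (308 counts). Both regions of 10.2 kb, at chr20:41970801-41981000 and chr20:57075601-57085800, held 260 and 273 counts. Both of 10.0 kb, at chr20:39451201-39461200 and chr20:40808201-40818200, held 274 and 304 counts. The seventh and eighth in length were chr20:41609801-41619400 with 9.6 kb and 267 counts, and chr20:49898001-49907400 with 9.4 kb and 245 counts. The 5 highest counts all belonged to regions among these 8, so a high count here marked a long region and not a dense one. For scale, the longest region of another autosome measured 125.8 kb and the highest count there was 103161, against 333 in the window.

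Counts per kb, the strength of a region per unit of length, fell in a narrow band. The median value was 28.6 per kb, the quartiles were 26.7 and 31.6, and 247 of the 260 regions (95%) lay between 20 and 40 counts per kb. On the other autosomes 75.5% did, with a median of 31.4 and quartiles of 27.6 and 40. The upper quartile was 1.18 times the lower one in the window, a smaller ratio than on each of the other 21 autosomes, with chromosome 13 the closest at 1.21 and chromosome 5 the farthest at 2.57. Those chromosomes were taken whole, centromeres and ends included, and the most crowded 24 Mb of chromosome 3 alone had a ratio of 1.17, below that of the window. Chromosomes 8 and 10 had lower medians (28.3 counts per kb on chromosome 8), and the remaining 19 had higher ones, up to 48.1 on chromosome 4. Only 2 regions of the window, 0.77%, reached 60 or more counts per kb, against 10.4% on the other autosomes.

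Both were of the second-shortest length in the list, 400 bp, at which even a low count gives a high value per kb. One, at chr20:48231601-48232000, held 65 counts, or 162.5 per kb (95% exact Poisson interval 125.4 to 207.1). The other, at chr20:56988401-56988800, held 37 counts, or 92.5 per kb (65.1 to 127.5). Next were a pair of 1.2 kb, chr20:56204401-56205600 with 59.2 counts per kb and chr20:54813601-54814800 with 51.7, and a region of 2.2 kb at chr20:51218201-51220400 with 46.4. Without the first 2, the range was 21.6 to 59.2 counts per kb. The lowest value, 21.6, was that of a 4.4 kb region at chr20:51379801-51384200 with 95 counts.

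Counting error was set beside this spread. Pooled over all 260 regions the value was 28.6 counts per kb, and the 95% Poisson interval of 223 regions (85.8%) included it. The interval of 26 regions lay above the pooled value and that of 11 below. A single pooled value takes no account of length or of the threshold of the list. These shares therefore do not measure how much of the spread is counting error. Counts followed length closely: Spearman's rho between length and count was 0.97 over the 260 regions and 0.89 over the 2957 of the other autosomes, and with counts per kb it was -0.65 and -0.28. Regions over 1 and up to 2 kb had a median of 40 counts per kb, those over 3 and up to 4 kb had 29.4, and those over 10 kb had 26.1. On the other autosomes, the same classes had 42.5, 28.8 and 49.4. Over 10 kb, regions of the other autosomes were 1.89 times denser at the median, although only 4 regions of the window were that long. At 1 kb or less the order was the opposite, with 127.5 against 85 counts per kb, but only 2 regions of the window were that short.

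Since the list holds only regions that passed a threshold, the lowest count found in it at each length shows where the list ends. The chromosome 20 regions lay close above that edge. Their counts were a median of 1.27 times the lowest count of the same length in the whole list (quartiles 1.19 and 1.35), and 259 of 260 were under 2 times that lowest count. On the other autosomes the median was similar, 1.29, with quartiles of 1.18 and 1.45, but 7.47% reached 2 times or more, up to 80.2 times. In the most crowded 24 Mb of chromosome 3, all 177 regions were under 2 times, with a median of 1.30. In those of chromosomes 16 and 19, 98.3 and 92.6% were, both with a median of 1.27. Lying close above the edge was thus not particular to the window. At 22 lengths from 2.0 to 6.8 kb with at least 5 regions in the window and 10 on the other autosomes, the median count in the window was lower at 14, higher at 6 and equal at 2, with a median ratio of 0.98 and a range of 0.93 to 1.04. At 4.4 kb, for instance, 11 regions of the window had a median count of 113 and 114 regions of the other autosomes had 121, with a lowest value of 92 in the list. Between 2.0 and 6.8 kb, regions of one length in the window and elsewhere therefore had similar median counts. Both sets came from the same thresholded list and lay mostly close above its edge. Their medians at equal length therefore cannot show whether the sets differ in strength.

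**Figure D3:**
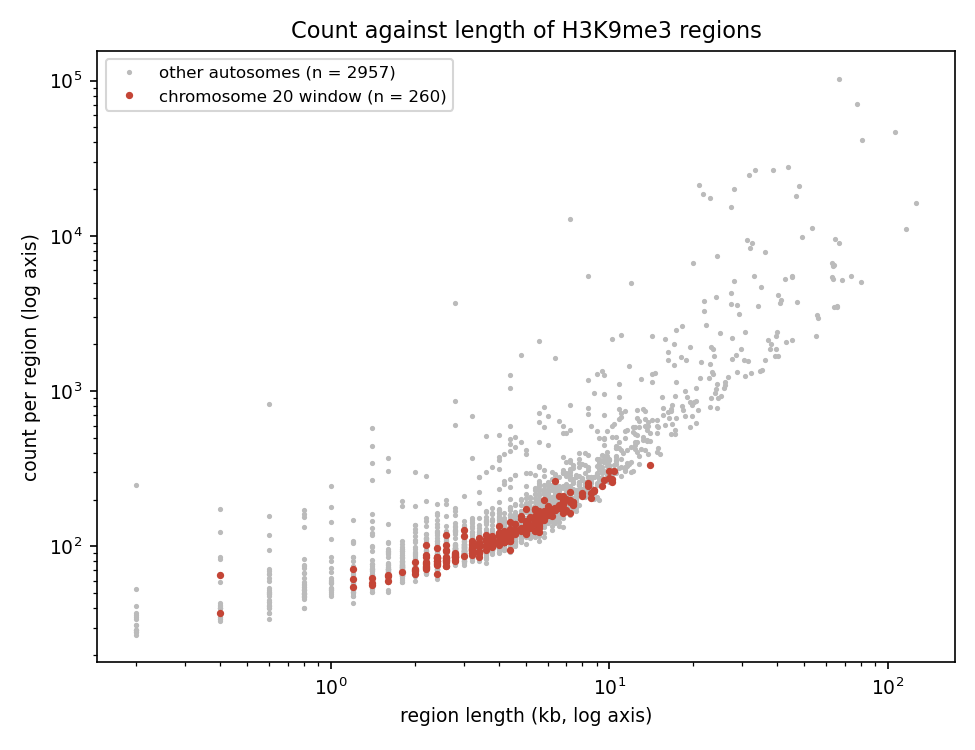
Count against length of each region, both on log axes, for the 260 regions of the chromosome 20 window (red) and the 2957 of the other autosomes (grey). From 2.0 to 6.8 kb the red points lie among the grey ones, with similar median counts at equal length. Both sets are cut from below by the threshold of the list. The red points stop at 14.0 kb and 333 counts.

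Neighbouring regions were a median of 34.8 kb apart, with quartiles of 14.8 and 99.4 kb. On the other autosomes the median gap was 95.9 kb with quartiles of 18.0 and 503.9 kb, and among those 21 chromosomes only chromosome 4 had a shorter median gap (16.1 kb). The difference lay in the middle and long distances and not in the shortest ones. Gaps under 10 kb made up 14.7% of the 259 gaps in the window and 18.1% of those on the other autosomes. Gaps under 100 kb made up 74.9% and 50.5%. No gap in the window reached 1 Mb, whereas 17.0% of the gaps on the other autosomes were longer than that. A window of 24 Mb cannot hold gaps as long as a whole chromosome can, and it was chosen where regions were many.

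The longest stretch without a region was 830.0 kb, from 55374401 to 56204400. It was followed by 796.6 kb (47129001 to 47925600), 742.0 kb (45894401 to 46636400), 603.8 kb (52665401 to 53269200) and 594.2 kb (34064601 to 34658800). Gaps over 500 kb numbered 7, or 2.70% of the 259, against 25.2% on the other autosomes. In the most crowded 24 Mb of chromosomes 3, 16 and 19 they made up 6.82, 5.85 and 11.1%. On each of the other autosomes, taken whole, the longest gap was at least 2723.4 kb, the value of chromosome 22. Chromosome 20 itself had a gap of 4433.4 kb outside the window, before 25 Mb. A stretch without a region shows only that nothing passed the threshold there.

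**Figure D4:**
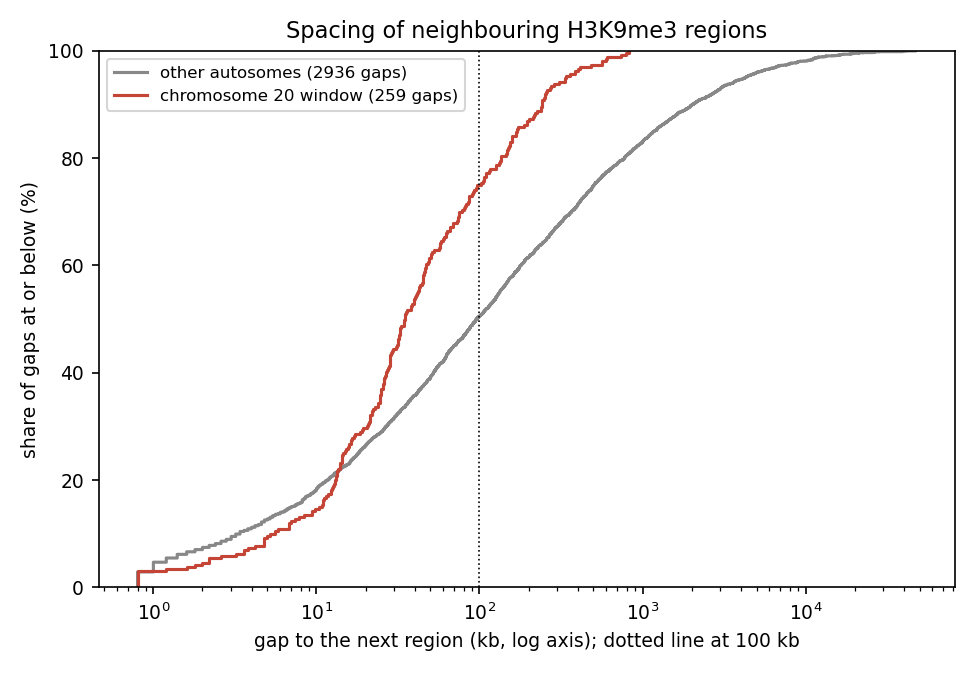
Cumulative share of gaps between neighbouring regions by size in kb (log axis), for 259 gaps of the window (red) and 2936 of the other autosomes (grey), with a dotted line at 100 kb. The curves cross between 10 and 20 kb, and at 100 kb the red one stands at 74.9% and the grey one at 50.5%.

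When regions less than 100 kb apart were joined, 236 of the 260 (90.8%) fell into 42 clusters and 24 stood alone. On the other autosomes 65.1% fell into clusters. In the most crowded 24 Mb of chromosomes 3, 16 and 19, the share was closer to that of the window, at 87.6, 83.7 and 84.6%. Of the 42 clusters in the window, 15 had 2 regions, 13 had 3 or 4, and 14 had 5 or more. Clusters of 5 or more held 163 regions, or 62.7%, against 37.1% on the other autosomes. The median counts per kb of these 14 clusters ran from 27.07 to 31.97, and those of the 28 clusters of 2 to 4 regions ran more widely, from 25.5 to 36.5. The 5 largest clusters had 106 regions (40.8%) and 42.6% of the covered length.

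The largest cluster, chr20:40557601-42119600, held 50 regions, 19.2% of those in the window. Over 1562.0 kb it covered 258.8 kb, or 16.6%, in pieces of 1.6 to 10.2 kb with a median of 5000 bp. Every region in it lay between 22.8 and 40 counts per kb, and the middle one had 28.3. The gaps within it had a median of 17.2 kb and quartiles of 9.4 and 37.8 kb, and 13 of 49 were under 10 kb. Its regions were unevenly placed. The first 500 kb held 19, the next 250 kb held 3, and the last piece, from 1250 kb on, held 13. It consisted of many separate small pieces. On the other autosomes the largest cluster, 49 regions on chromosome 16 between 34233201 and 35285800, had a region of 63.2 kb and covered 35.4% of its span. A cluster of 42 regions on chromosome 3 (134330001 to 135508400) was closer to it, with 17.3% covered, a median of 29.3 counts per kb and no region over 11.6 kb.

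The second cluster, chr20:54487801-54874800, packed 17 regions into 387.0 kb, of 3400 bp and 30.4 counts per kb at the median. The third, chr20:51153001-51714400, had 16 regions over 561.4 kb, of 4600 bp and 27.3 counts per kb at the median, and it held both the lowest counts per kb of the window and the fifth highest. Cluster 4, chr20:44037601-44434200, had 12 regions over 396.6 kb (5000 bp, 27.8 counts per kb). Cluster 5, chr20:47925601-48239800, had 11 regions over 314.2 kb (4600 bp, 30.2 counts per kb), and the dense 400 bp region was 1 of them. In all 5 clusters, between 13.4 and 16.6% of the span was covered. None was a continuous block.

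As background, 4 of these clusters lie near where gene loci of the long arm are known to be. The largest lies in the neighbourhood of PTPRT, which encodes a receptor-type tyrosine phosphatase of neural tissue and which, at 1158 kb in RefSeq (GRCh38.p14), is the second-longest of 537 protein-coding genes on chromosome 20, between CHD6 and SRSF6. Cluster 4 falls in the telomeric part of the WFDC locus, a run of genes for small protease inhibitors expressed mainly in epithelia and the male reproductive tract, from WFDC2 to WFDC3. Cluster 2 falls around CBLN4 and MC3R, a synaptic organizer and a melanocortin receptor. Cluster 3 lies in the neighbourhood of TSHZ2, which follows ZFP64 in gene order and encodes a zinc finger homeobox protein. These loci were chosen after the clusters had been seen, and their places on hg19 are general knowledge that was not checked against an annotation of that build. Only symbols, gene order and length come from RefSeq. No overlap with a gene was computed, since the gene table used was on GRCh38 and the regions are on hg19, and no base sequence of a region is printed because no hg19 genome was used here.

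Cutting the window into 3 pieces of 8 Mb gave the highest number and the longest median length on the side of the centromere. The first piece, from 34 to 42 Mb, held 110 regions with a median length of 4700 bp and 539.0 kb covered. The second held 68 regions (4200 bp, 282.0 kb) and the third 82 (3900 bp, 352.4 kb). The number rested on the largest cluster, which had 48 of its 50 regions in the first piece: without it the pieces held 62, 66 and 82 regions, with median lengths of 4400, 4200 and 3900 bp. The median gap was 27, 47.2 and 38.6 kb in the same order. Counts per kb did not follow, with medians of 28.3, 29.1 and 28.7. Over the 24 bins, the rank correlation of position was -0.07 with the number of regions, as given above, -0.54 with the median length and 0.35 with the median counts per kb. Adjacent regions showed little likeness: Spearman's rho between a region and the next was -0.06 for counts per kb and -0.08 for length, over 259 pairs.

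The 3 fullest 24 Mb stretches of other autosomes, picked by their number of regions, held fewer regions of similar median length and strength. The fullest 24 Mb of chromosome 3 (129 to 153 Mb, 177 regions) had a median length of 4000 bp and 29.4 counts per kb. That of chromosome 16 (63 to 87 Mb, 172 regions) had 4200 bp and 28.7 counts per kb, and that of chromosome 19 (35 to 59 Mb, 136 regions) had 4200 bp and 30 counts per kb. Between 20 and 40 counts per kb lay 95.5% of the regions on chromosome 3, 94.8% on chromosome 16 and 81.6% on chromosome 19, beside 95% on chromosome 20. At 60 or more counts per kb were 0 of the 177 regions on chromosome 3, 2 of the 172 on chromosome 16 (1.16%) and 7 of the 136 on chromosome 19 (5.15%), beside 0.77% on chromosome 20. The ratio of the upper to the lower quartile of counts per kb, 1.17 in the chromosome 3 stretch, was 1.21 on chromosome 16 and 1.32 on chromosome 19. Regions of 10 kb or more made up 2.82% on chromosome 3, 1.74% on chromosome 16 and 1.47% on chromosome 19, and those of 1 kb or less made up 0, 1.16 and 2.94%. The share in clusters of 5 or more was 64.4% on chromosome 3, 55.8% on chromosome 16 and 61.0% on chromosome 19, beside 62.7%. The median gap was 33.7 kb on chromosome 3, slightly below the 34.8 kb of chromosome 20. Each of the 3 stretches had 1 bin of 1 Mb without a region and a gap of at least 1586.0 kb, where the chromosome 20 window had no empty bin and no gap above 830.0 kb. Among these 3 stretches, the narrow band of strength was thus shared by those of chromosomes 3 and 16. Chromosome 13, taken whole, also had a ratio of 1.21, with 0.44% of its regions at 60 or more counts per kb. Stretches of the remaining chromosomes were not examined in this way, and no test of a difference was made.

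Crowding went on beyond both borders of the window, though not at an even level. The last regions before 34 Mb, at 33774801 and 33824201, had 37.5 and 29.7 counts per kb, and the first inside, at 34014201 and 34062001, had 26.9 and 35.8. At the other border, the last regions inside (57947201 and 57959001) had 24.6 and 41.4 counts per kb, and the first outside (58023201 and 58038401) had 27.4 and 32.5. From 30 to 34 Mb there were 35 regions, 8.75 per Mb, with a median of 4000 bp and 28.2 counts per kb. From 58 Mb on there were 73, 14.6 per Mb, with 4200 bp and 28.9 counts per kb. The number rose across that border: the bins beginning at 57, 58 and 59 Mb held 8, 15 and 31 regions. The last of these was fuller than any bin of the window. Regions from 25 to 30 Mb, around the centromere, were of another kind: 25 regions with a median of 6200 bp and 35.0 counts per kb, of which 7 measured 10 kb or more and 4 had 60 or more counts per kb, up to 446.9. The first 25 Mb of the chromosome held 32 regions, 1.28 per Mb, with a median gap of 507.2 kb. The bounds at 34 and 58 Mb thus cut through a longer crowded stretch.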

How the data were processed

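Chromatin of BJ-HELT cells was precipitated with a rabbit polyclonal H3K9me3 antibody, and 2 such precipitates and 2 inputs were made into SOLiD libraries, per the labels' protocols. Nothing says whether the 2 replicates were separate cultures. The submitters' processing notes name Bowtie, SICER and the builds hg19 and GRCh37. Versions, settings, the threshold, pooling of libraries and the handling of reads with several matches are not stated there or in the list. For every region, the single deposited list gives its position and a whole number without a name, read as a count of ChIP reads as deposited by the authors and not scaled for length, depth or input. All positions lie on a grid of 200 bp and are printed from 1. Library depth is unknown. Intervals cover counting error only, and reads may include PCR copies.

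Counts per kb is the count divided by the length. Gaps run from the end of a region to the start of the next. Regions under 100 kb apart were joined into clusters, and midpoints placed regions in 1 Mb bins. Named were the 8 longest regions, the 5 with the highest count, the 5 with the highest counts per kb, the 5 clusters with most regions, the 5 longest gaps and the 5 fullest and 5 emptiest bins (8 with ties). The lowest counts per kb, the loci, the 24 Mb stretches and the cut at 60 counts per kb were chosen after the values were seen. The window and all lists were chosen with earlier results of these data known. No test was made. The scripts were tested on simulated data with known gaps and clusters. Values were computed with pandas 2.3.3, numpy 2.4.6 and scipy 1.17.1 under Python 3.11.15 and drawn with matplotlib 3.10.9.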

Additional observations from a re-analysis of the deposited data

How the results depend on the processing

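No paired analysis was possible because the series has a single list of regions, which also means that no replicate could be left out. A value counted as moved when it changed by more than 1.5 times. Values recomputed under alternative settings numbered 41, often several per setting, of which 34 stayed within that limit and 7 moved. Some settings left little room to move: without regions of 1 kb or less, 258 of the 260 regions remained. With only the regions at or above the list's median count, 145 regions in 27 clusters remained, with a median gap of 70.9 kb. Bounds of 38 to 54 Mb, which shorten the window, gave 27 clusters, and a join distance of 500 kb gave 8. Bins shifted by 0.5 Mb left 1 region in the emptiest bin. Leaving out the largest cluster, an alternative chosen after seeing the data, moved the number of regions from 34 to 42 Mb to 62 and no other of the values recomputed (210 regions in all, a median gap of 41.7 kb, 28.7 counts per kb). Over all alternatives the median of counts per kb ran from 27.5 to 28.7.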
